A study of Mus musculus with 4 samples.

Results

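The cells described here are Sertoli cells of the mouse testis after busulfan, an alkylating drug that kills dividing germ cells. They were chosen by a rule on 6 genes in the library of busulfan alone (B0). A cell had to have a transcript of at least 2 of Cst12, Cst9, Rhox8, Aard, Amhr2 and Sox9, which 4313 of the 4659 B0 cells had, and of these the 200 with the highest mean deposited value over the 6 genes were taken. They were compared with the other 4459 B0 cells. The number of chosen cells is set by the rule and is not a measure of how many Sertoli cells the testis held, and the levels of the 6 genes are a description only.

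Testis tubular cells came from mice of the outbred ICR stock and were measured by single-cell RNA sequencing in droplets (10x Genomics, 3' ends), where transcripts are tagged before amplification and counted as unique molecular identifiers (UMIs). Males were 3 weeks old when they received busulfan at 40 mg/kg, and from the next day they were dosed with water or with alginate oligosaccharides (AOS), breakdown products of a seaweed polysaccharide. The libraries were A0 (neither agent), A10 (AOS at 10 mg/kg), B0 (busulfan and water) and BA10 (busulfan and AOS at 10 mg/kg), with 27060 cells in all. Dosing lasted 5 or 2 weeks, the sources differing on this. Each group was 1 library made from 6 pooled mice, so there was no replicate and no test could be made: intervals below are exact 95% intervals for counting error only, binomial (Clopper-Pearson) for shares of cells and Poisson for UMI sums, and cells are not replicates. Digestion was brief and with a trypsin-like enzyme, and the yield of large Sertoli cells under it was not measured.

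Sertoli cells are the somatic cells of the seminiferous tubule. They surround the germ cells, seal the tubule with the junctions of the blood-testis barrier, secrete proteins into the tubule fluid, hand lactate and iron to germ cells, and engulf dying germ cells. They respond to follicle-stimulating hormone and testosterone and signal back through inhibin, while before puberty they secrete anti-Müllerian hormone.

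The rule genes are of several kinds. Cst12 and Cst9 encode cystatin-related proteins, Rhox8 a homeobox factor of the X chromosome, Amhr2 the receptor of anti-Müllerian hormone, and Sox9 the transcription factor that sets Sertoli fate in the embryo, and the role of Aard is less well known. On the mm10 build Cst12 (ENSMUSG00000027443) lies at chr2:148789361-148793546 and Cst9 (ENSMUSG00000027445) at chr2:148835147-148838738, both on the plus strand. Amhr2 (ENSMUSG00000023047) lies at chr15:102445367-102454633 and Sox9 (ENSMUSG00000000567) at chr11:112782224-112787760, also on the plus strand. Cldn11 (ENSMUSG00000037625, chr3:31149920-31164324, plus strand), which encodes the claudin of Sertoli tight junctions, was not part of the rule and had the highest ratio of all listed genes outside the rule. Because the rule genes and Cldn11 were all high in the same cells, 3 of their promoters are shown, from RefSeq on GRCm38.p6, each with 250 bases before and 50 after the start and each on the plus strand. The windows are chr2:148789115-148789414 for Cst12, chr15:102445117-102445416 for Amhr2 and chr3:31149670-31149969 for Cldn11. Capitals mark the only match to the motifs searched, a steroidogenic factor type site.
Cst12: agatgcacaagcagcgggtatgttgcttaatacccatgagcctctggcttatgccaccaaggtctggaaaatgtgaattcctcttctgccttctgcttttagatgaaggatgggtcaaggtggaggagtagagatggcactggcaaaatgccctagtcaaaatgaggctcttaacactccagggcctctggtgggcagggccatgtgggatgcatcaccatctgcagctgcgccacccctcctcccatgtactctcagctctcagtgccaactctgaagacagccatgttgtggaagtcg
Amhr2: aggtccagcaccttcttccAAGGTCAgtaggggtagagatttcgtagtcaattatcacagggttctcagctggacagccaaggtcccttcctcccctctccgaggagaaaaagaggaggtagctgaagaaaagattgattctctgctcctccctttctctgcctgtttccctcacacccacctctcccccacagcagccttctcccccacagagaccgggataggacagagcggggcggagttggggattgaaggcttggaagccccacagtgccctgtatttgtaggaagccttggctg
Cldn11: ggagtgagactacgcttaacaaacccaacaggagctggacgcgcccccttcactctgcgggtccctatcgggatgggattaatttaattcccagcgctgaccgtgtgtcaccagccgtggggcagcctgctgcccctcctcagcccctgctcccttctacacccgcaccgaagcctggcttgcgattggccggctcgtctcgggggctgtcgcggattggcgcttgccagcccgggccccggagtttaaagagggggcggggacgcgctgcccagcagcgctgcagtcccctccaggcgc
Letters were searched on both strands. The SOX-type motif AACAAT was found in 10.9% of all 27025 mouse promoters in the table. The GATA-type motif, spelled AGATAA, was found in 11.4% of them. The steroidogenic factor type motif was AAGGTCA, found in 4.66%. The cAMP response element, TGACGTCA, was found in 1.88%. Among the 1808 compared genes with a promoter that were at least 2-fold higher in the chosen cells the shares were 6.25%, 5.37%, 2.71% and 3.10%, in that order, beside 6.01%, 6.07%, 3.08% and 3.49% of the 7824 compared genes with a promoter. A match is a description of letters, not a binding site. Promoters were matched for 3 of the 6 rule genes, leaving Rhox8, Aard and Sox9.

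All 200 chosen cells had at least 5 of the 6 genes, 151 of them all 6. The mean deposited value, a natural log of 1 plus the share of a cell's UMIs per 10000, ran from 3.76 in the first cell to 2.82 in the 100th. Just inside the limit the 199th and the 200th cell had 2.261 and 2.260, and just outside it the 201st and the 202nd had 2.257 and 2.245, so the limit cuts through a slope without a gap. The 200th cell had 30 UMIs of the 6 genes among its 3492 UMIs and the 201st had 27 among 3169.

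The chosen cells held 861399 of the 25323535 UMIs of the B0 library. Each had 2990 to 16776 UMIs with a median of 3964, close to the median of 4224 of the other B0 cells, and their median number of detected genes was 2090.5 against 1906. Summed over cells, Cst12 was at 6235 CPM (counts per 1000000 UMIs, interval 6070 to 6404) in the chosen cells and at 475 CPM (467 to 484) in the others. Aard was at 4608 and 364 CPM, Cst9 at 2665 and 280, Amhr2 at 1624 and 179, Rhox8 at 1544 and 142, and Sox9 at 469 and 15.8 CPM. Per chosen cell, Cst12 had a lowest, median and highest count of 3, 21 and 86 UMIs and Sox9 of 0, 2 and 9.

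**Figure D1:**
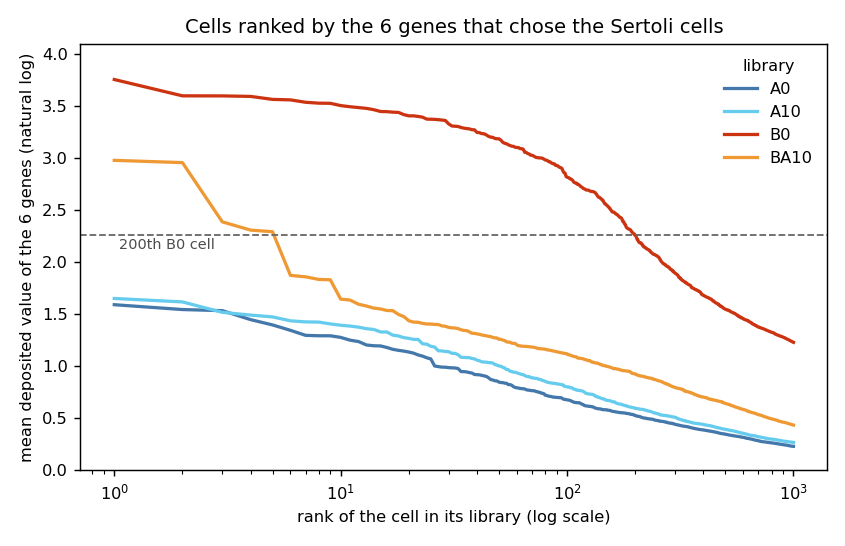
Mean deposited value of the 6 rule genes (natural log scale) against the rank of the cell in its library (log scale), for the 1000 highest cells of each of the 4 libraries. The dashed line is the value of the 200th B0 cell, 2.260, which 5 BA10 cells reached and the A0 and A10 cells did not, their highest values being 1.59 and 1.65.

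Transcripts of the rule genes were also counted with barcodes of other kinds of cells. Reference sets of up to 100 B0 cells each were taken by marker genes for Leydig cells, macrophages, endothelial cells (87 cells), spermatocytes and spermatogonia. Cst12 had a UMI in 94.0% of the spermatocyte cells (interval 87.4 to 97.8, median 5060 UMIs per cell) and 81.8% of all other B0 cells. It lay between 328 and 727 CPM in all 5 reference sets, and the part of free RNA in these counts was not tested. Sox9, by contrast, had a UMI in 7% of the spermatocyte cells (interval 2.86 to 13.9) and 80.0% of the chosen ones (73.8 to 85.3).

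The label was checked with 23 Sertoli markers that the rule did not use. All 23 had a UMI in enough cells to be compared, and 22 were at least 2-fold higher in the chosen cells than in the other B0 cells, with 0 at least 2-fold lower and a median log2 ratio of 3.42. Log2 ratios have 1 CPM added throughout, so they understate the ratio of low genes. Over all 10006 genes with a UMI in at least 5% of the cells of either set, 2315 (23.1%) were at least 2-fold higher and 2296 (22.9%) at least 2-fold lower, and the median log2 ratio was 0.12. Of the 22 higher markers, Fshr, Sox8, Amh, Inhbb, Dhh, Shbg and Cldn3 passed the 5% limit only through the chosen cells. For these the direction was partly set by the limit, and genes of the lists below could likewise pass through 1 set alone. Of the 23 markers, 20 were also higher in the chosen cells than in each of the 5 reference sets, which held for 22.7% of all genes compared. The chosen cells were selected on genes of the same cells, so these counts describe the set and are not a test of it.

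Cldn11 stood at 1311 CPM (interval 1235 to 1389) in the chosen cells and 46.8 CPM (44.1 to 49.6) in the others, a log2 ratio of 4.78. It had a UMI in 93.5% of the chosen cells (89.1 to 96.5), 54.0% of the next 200 in rank (46.8 to 61.1), 22.0% of the spermatocyte set (14.3 to 31.4) and 11% of the Leydig set (5.62 to 18.8). The chosen cells lay above every other set in both measures. In the list of tight, gap and adherens junction genes, Cldn11 included, 19 of 20 genes could be compared, 16 (84.2%) were at least 2-fold higher and 1 at least 2-fold lower, and the list's median log2 ratio was 2.82. Jam2, a junction adhesion molecule, was at 211 and 9.44 CPM, Cgn, the tight junction protein cingulin, at 229 and 12.8 CPM, and Ocln, occludin, at 36.0 and 1.64 CPM. Itga6, an integrin, was at 84.7 and 4.95 CPM and Cdh2, N-cadherin, at 201 and 13.2 CPM. Espn, which bundles actin at the ectoplasmic specialisation where Sertoli cells hold spermatids, was at 945 and 132 CPM, with a lowest, median and highest count of 0, 3 and 18 UMIs per chosen cell. The gene at least 2-fold lower was Cldn5, a claudin of endothelium and of Sertoli cells, at 23.2 and 50.4 CPM. Cldn5 was at 2018 CPM in the endothelial set and 13.3 CPM in the Leydig set. It had a UMI in 7.5% of the chosen and 6.86% of the other cells. Gja1, the gap junction protein connexin 43, had 225 and 57.7 CPM, and Ctnnb1 (beta-catenin, log2 ratio 0.89) and Itgb1 (an integrin, 0.43) lay between the limits.

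**Figure D2:**
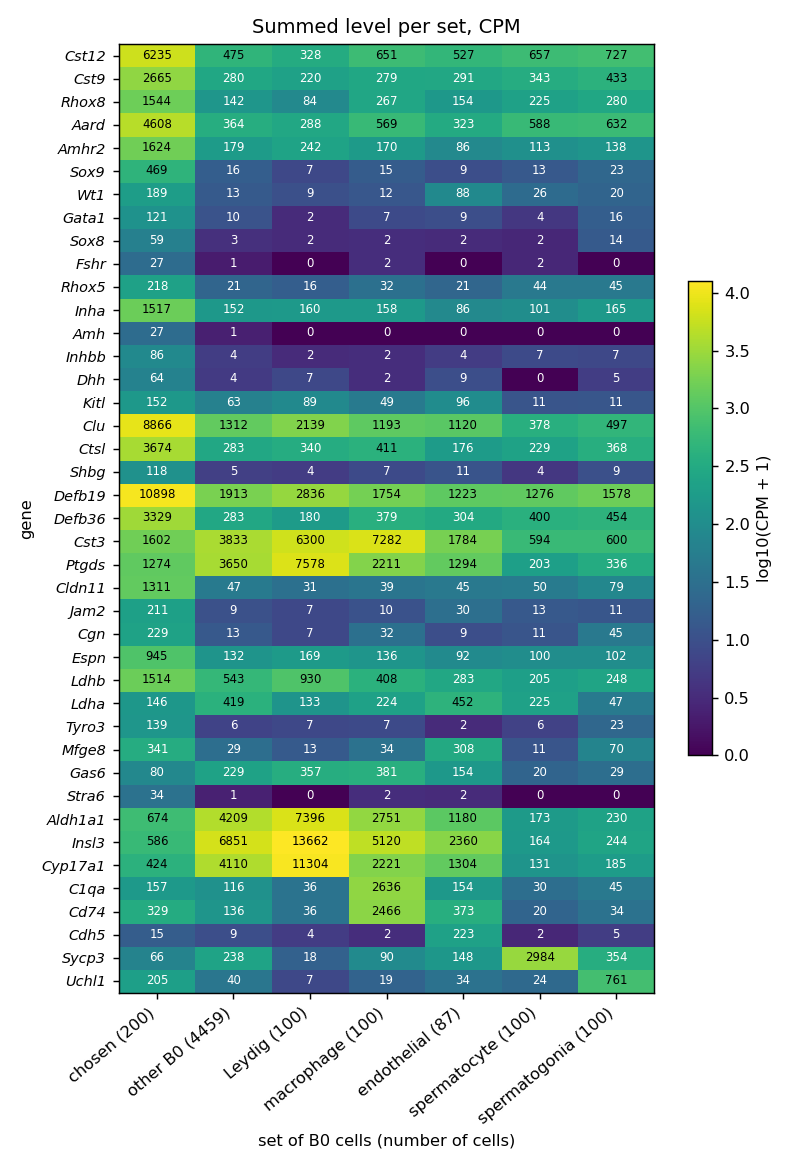
Summed level (CPM, printed in each cell and coloured as log10 of CPM plus 1) of 41 genes in the chosen cells, all other B0 cells and the 5 reference sets, with the number of cells in each set. The top 6 rows are the genes that chose the cells; Cldn11 reads 1311 CPM in the chosen cells and 31 to 79 CPM in the reference sets, whereas Insl3 reads 586 CPM and 13662 CPM in the Leydig set.

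Transcription factors and hormone receptors of Sertoli cells were mostly high. Of 15 listed genes 12 could be compared, 9 (75%) were at least 2-fold higher and 0 at least 2-fold lower, with a median log2 ratio of 2.23. Wt1, the factor that keeps Sertoli cells in their fate, was at 189 CPM (interval 161 to 221) and 13.2 CPM, with a UMI in 55.5% of chosen and 6.53% of other cells. Sox8, a relative of Sox9, was at 59.2 and 2.70 CPM, Gata1, an erythroid and Sertoli factor, at 121 and 10.4 CPM, and Rhox5, an androgen-responsive homeobox gene, at 218 and 20.8 CPM. Fshr, the receptor for follicle-stimulating hormone, had 23 UMIs in 20 of the 200 cells, or 26.7 CPM (interval 16.9 to 40.1), against 1.06 CPM (0.694 to 1.56) in the others and 0 UMIs in the Leydig set. Factors that Leydig cells also use had smaller or opposite ratios: Gata4 was at 66.2 and 28.4 CPM and Nr5a1, the steroidogenic factor, at 73.1 and 118 CPM. Dmrt1 reached 40.6 CPM in the chosen cells and 190 CPM in the spermatogonia set, which also use this gene.

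Among secreted hormones and growth factors, 9 of the 14 listed genes in the table could be compared, 8 (88.9%) were at least 2-fold higher and 1 at least 2-fold lower, and the median log2 ratio was 3.59. Of the 8, Amh, Inhbb, Fst, Dhh and Igfbp3 reached the 5% limit only through the chosen cells, where they are high. Inhba, Bmp4, Jag1, Gdnf and Il1a fell below it in both sets. The share of higher genes is therefore partly set by the limit. Inha, the alpha subunit of inhibin, was at 1517 CPM in the chosen cells and 152 CPM in the others, with a lowest, median and highest count of 0, 4 and 29 UMIs per chosen cell. Of the beta subunits, Inhbb was at 85.9 and 4.46 CPM, while Inhba had 0 UMIs in the chosen cells and 1.55 CPM in the others. Fst, which binds activins, was at 68.5 and 4.09 CPM, and Igfbp3, a carrier of insulin-like growth factors, at 84.7 and 5.19 CPM. Dhh, the hedgehog signal from Sertoli to Leydig cells, was at 63.8 and 3.88 CPM. Amh, the hormone of immature Sertoli cells, had 23 UMIs in 21 cells, or 26.7 CPM (interval 16.9 to 40.1), against 1.31 CPM (0.895 to 1.85), and 0 UMIs in both the Leydig and the spermatocyte set. Kitl, which feeds the Kit receptor of germ cells, was at 152 and 63.1 CPM. Gdnf, the niche factor of spermatogonial stem cells, had 8 UMIs in the chosen cells (9.29 CPM, against 0.572 CPM) and was in too few cells to be compared. The gene at least 2-fold lower was Cxcl12, a chemokine, at 24.4 and 172 CPM.

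Carriers, protease inhibitors and defensins summed to 38376 CPM in the chosen cells and 14017 CPM in the others. Of 20 listed genes 19 could be compared, 15 (78.9%) were at least 2-fold higher and 3 at least 2-fold lower, and the median log2 ratio was 2.51. Defb19 and Defb36, beta-defensins of the male tract, were at 10898 and 1913 CPM and at 3329 and 283 CPM. Clu, the secreted chaperone clusterin, was at 8866 and 1312 CPM, and Ctsl, a cathepsin that Sertoli cells secrete, at 3674 and 283 CPM. The highest ratios in the list were those of Plat, tissue plasminogen activator (78.9 and 2.74 CPM), Shbg, androgen-binding protein (118 and 5.07 CPM), Mro (260 and 15.9 CPM) and Defb45 (620 and 42.7 CPM). Trf, transferrin, which carries iron to germ cells, was at 72.0 and 28.1 CPM, and at 318 CPM in the macrophage set. The 3 genes at least 2-fold lower were Cst3, cystatin C (1602 and 3833 CPM), Cst8, a cystatin of the epididymis and testis (22.1 and 114 CPM), and Ptgds, prostaglandin D synthase (1274 and 3650 CPM). In the Leydig set Cst3 was at 6300 CPM and Ptgds at 7578 CPM.

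All 17 listed genes of glucose uptake and lactate supply could be compared, 2 (11.8%) were at least 2-fold higher and 5 at least 2-fold lower, and the median log2 ratio was -0.05. The list summed to 4688 CPM in the chosen cells and 4678 CPM in the Leydig set. Ldhb, a lactate dehydrogenase subunit, was at 1514 and 543 CPM, and Pfkl, a phosphofructokinase, at 136 and 28.5 CPM. Ldha, the other somatic lactate dehydrogenase subunit, was at 146 and 419 CPM. The lactate transporter Slc16a1 was at 67.3 and 49.0 CPM and the glucose transporter Slc2a1 at 15.1 and 10.3 CPM, both between the limits. The largest difference downward was that of Pfkp, another phosphofructokinase, at 5.80 and 54.2 CPM.

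Genes of engulfment and of the lysosome differed from one another. Of 22 listed genes 21 could be compared, 10 (47.6%) were at least 2-fold higher and 2 at least 2-fold lower, with a median log2 ratio of 0.59. Of the receptors that recognise dying cells, Tyro3 was at 139 and 5.56 CPM, Axl at 168 and 17.9 CPM and Mertk at 43.0 and 12.0 CPM. Scarb1, a scavenger receptor, lay between the limits at 231 and 165 CPM. It was at 435 CPM in the endothelial set and 337 CPM in the Leydig set. The bridging protein Mfge8 was at 341 and 28.8 CPM, whereas Gas6, the ligand that links Tyro3, Axl and Mertk to dying cells, was at 80.1 and 229 CPM. In the macrophage set Gas6 was at 381 CPM and in the Leydig set at 357 CPM, and Mfge8 was at 308 CPM in the endothelial set. Among lysosomal genes, Lgmn (legumain) had 438 and 90.7 CPM and Cd63 590 and 86.3 CPM, while Ctsb and Ctsd (cathepsins) and Lamp1 lay between the limits. In the macrophage set Lgmn was at 799 CPM, and the whole list summed to 7542 CPM there, beside 4736 CPM in the chosen cells. Abca1, a cholesterol exporter, was the other gene at least 2-fold lower, at 82.4 and 217 CPM.

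For retinoid handling, 10 of 16 listed genes could be compared, 5 (50%) were at least 2-fold higher and 4 at least 2-fold lower, and the median log2 ratio was 0.61. Stra6 and Rdh10 reached the 5% limit only through the chosen cells, and Rdh11 and Rxra only through the others. Stra6, the receptor that takes retinol from the blood carrier, was at 33.7 and 1.39 CPM. Rara, the retinoic acid receptor of Sertoli cells, was at 83.6 and 18.7 CPM, and Rdh10, which oxidises retinol, at 24.4 and 5.03 CPM. Aldh1a1, an enzyme that makes retinoic acid, was lower at 674 and 4209 CPM, and stood at 7396 CPM in the Leydig set. Rdh11 was at 1.16 and 35.9 CPM and Rxra at 6.97 and 41.6 CPM. With genes compared whatever the share of cells they were seen in, the list's median was -0.25.

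Of 14 cytoskeletal genes 11 could be compared, 5 (45.5%) were at least 2-fold higher and 0 at least 2-fold lower, with a median log2 ratio of 0.99. Tubb3 and Tuba1a, tubulins, were at 389 and 28.6 CPM and at 769 and 80.8 CPM, and Vim, the intermediate filament protein vimentin of Sertoli cells, at 567 and 124 CPM. Vim was at 623 CPM in the endothelial set, above the chosen cells. The keratins Krt8 and Krt18, known from immature Sertoli cells, had 3 and 5 UMIs in the chosen cells, in 0.5% of them each, and were in too few cells to be compared. Immediate early genes, which cells switch on within minutes of stress or handling, gave 14 of 15 genes compared, of which 7 (50%) were at least 2-fold higher and 0 at least 2-fold lower, with a median log2 ratio of 0.87. Klf6 was at 182 and 36.9 CPM, Atf3 at 51.1 and 10.1 CPM and Fos at 223 and 147 CPM. The macrophage set, at a summed 3113 CPM of these genes, lay above the chosen cells (2232 CPM), and among the 100 highest ranked cells alone the list's median was 0.070. Against the 53 B0 cells with none of the 6 genes it was -0.018.

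The medians of these lists were also taken against other cells. Against the spermatocyte reference cells, a comparison chosen after seeing the data, the 9 medians lay between 1.79 (lactate supply) and 3.89 (carriers and defensins), with 2.79 for engulfment, 2.55 for the cytoskeleton and 3.75 for immediate early genes.

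**Figure D3:**
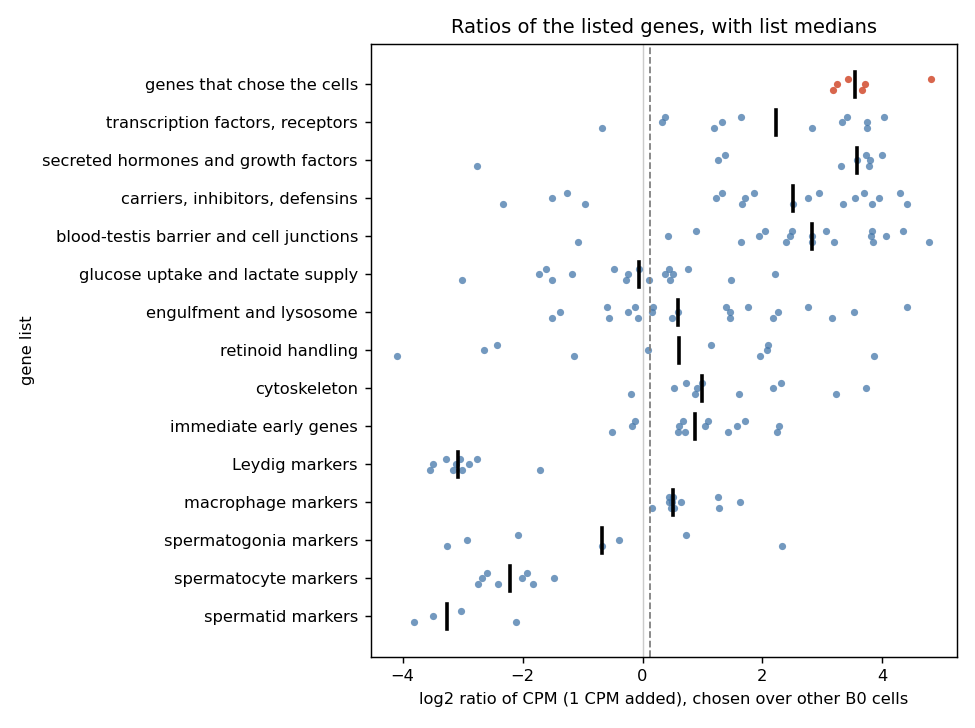
Log2 ratio of CPM (1 CPM added) of chosen over other B0 cells for each compared gene of 15 lists (points), with the list median as a black bar, the median of all genes (0.12) dashed and the genes that chose the cells in red. Junction genes have a median of 2.82 and lactate supply genes of -0.05, and all 10 Leydig markers lie between -3.54 and -1.72.

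By the size of the ratio alone, the 20 genes highest in the chosen cells, rule genes aside, were named. The first was 4930486L24Rik (ENSMUSG00000050345, chr13:60842612-60864475, minus strand), at 310 and 7.32 CPM, a ratio of 42.4-fold. Gpm6b (chrX:166238911-166388988, plus strand), a membrane proteolipid known from neurons, was at 305 and 9.16 CPM. After these came Esyt3, which tethers membranes (101 and 2.53 CPM), Cck, the peptide hormone cholecystokinin (146 and 4.29 CPM), Cldn11, and Ptprv, annotated as a processed transcript (69.7 and 1.64 CPM). Cck was seen in 15.5% of the chosen cells. Its log2 ratio was 4.80, and as low as 1.74 under the other settings described below.

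The rest of the 20 hold several groups. Genes of Wnt signalling were Frzb, a secreted inhibitor (172 and 6.05 CPM), and Wnt4, a ligand needed for ovary formation (130 and 5.07 CPM). Sulf1, which trims heparan sulfate, was at 56.9 and 1.55 CPM. St8sia2, a polysialic acid transferase, was at 114 and 3.97 CPM, and Qpct, which caps peptides with pyroglutamate, at 338 and 13.4 CPM. Slc52a3, a riboflavin transporter, was at 262 and 9.85 CPM and Slc26a7, an anion exchanger, at 78.9 and 2.66 CPM. Cidea, a lipid droplet protein, was at 248 and 10.2 CPM. Aplp1 (204 and 8.26 CPM), Gpr37 (55.7 and 1.51 CPM) and Plppr4 (88.2 and 2.74 CPM) are known mainly from the nervous system. Ildr2 was at 63.8 and 2.08 CPM, and Tyro3 and Plat were given with their lists. None of the 5 reference sets reached the level of the chosen cells for any of the 20. The 20 were picked for high ratios over cells that include these sets, so this follows largely from the choice. Apart from Cldn11, Slc52a3, Qpct and Cidea, they reached the 5% limit only through the chosen cells, so their direction was partly set by the limit.

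The 10 genes with the smallest ratio were low in the chosen cells. In the chosen cells 9 of them had 0 UMIs, which with a floor of 3 UMIs over the set gives bounds. The floor is 3.48 CPM, while the exact interval of 0 UMIs reaches 4.28 CPM, so bounds by the exact interval are smaller. By the floor 1700001F09Rik was at least 18.7-fold lower, from 65.2 CPM in the other cells, a log2 ratio of -4.23. The exact interval of its ratio ends at -3.93. Lrrc18 was at least 14.8-fold lower and Galntl5 at least 12.7-fold. The others, 4933402N22Rik, Cfap70 (a cilium protein), Iqcd, Dpy19l2 (needed for the acrosome), Spata31 and Atp6ap1l, were at least 9.79-fold to 11.6-fold lower. These 9 genes were at 0 to 4.44 CPM in the Leydig set too, so their low level is not particular to the chosen cells. They had a UMI in 5.92% to 10.4% of the other B0 cells. The tenth, Ly6d, had 3 UMIs in the chosen cells (3.48 CPM against 155 CPM).

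Markers of other cell types were counted in the chosen cells. All 10 Leydig markers were at least 2-fold lower (median log2 ratio -3.08): Insl3, the Leydig peptide hormone, was at 586 CPM against 6851 CPM, and Cyp17a1, a steroid-making enzyme, at 424 against 4110 CPM. They were not absent, since the list summed to 2896 CPM in the chosen cells, 906 CPM in the spermatocyte set and 56476 CPM in the Leydig set. Insl3 had a UMI in 58.0% of the chosen cells (interval 50.8 to 64.9) and in 60.0% (49.7 to 69.7) of the spermatocyte cells, which should lack it. All 8 compared spermatocyte markers and all 4 compared spermatid markers were at least 2-fold lower, with medians of -2.21 and -3.26. The 4 spermatid markers reached the 5% limit only through the other cells. So did the spermatocyte markers Sycp2, Spo11, Hormad1, Piwil1 and Ccna1. For these the direction was partly set by the limit. The spermatocyte list summed to 221 CPM in the chosen cells and 62.1 CPM in the Leydig set, the spermatid list to 30.2 and 19.97 CPM. Their low level is therefore not particular to the chosen cells. The spermatocyte median did not reach the 2-fold limit with 300 chosen cells or against B0 cells with none of the 6 genes. Against the spermatocyte reference cells in place of all other B0 cells the Leydig median was 1.83.

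Of the macrophage markers 3 of 11 (27.3%) were at least 2-fold higher, a share near the 23.1% of all genes compared, and 0 at least 2-fold lower. Their median log2 ratio was 0.51, or -0.38 with the 100 highest ranked cells alone, and the list summed to 1325 CPM in the chosen cells, 743 CPM in the others and 16027 CPM in the macrophage set. Cd74, of antigen presentation, was at 329 and 136 CPM, and Fcer1g at 251 and 80.6 CPM. Endothelial markers summed to 69.7 and 103 CPM, with 0 UMIs of Pecam1, Vwf and Tie1 in the chosen cells, and of the 3 that could be compared 0 were at least 2-fold higher and 1 lower. The stroma list, led by Dcn, summed to 317 and 303 CPM (0 of 4 higher, 1 lower) and the T cell list to 2.32 and 10.3 CPM. Of the peritubular myoid markers Myh11, Cnn1 and Des had 0 UMIs and Acta2 had 3. The 2 that could be compared differed in direction: Myl9, a myosin light chain, was at 469 and 75.5 CPM and Tpm2, a tropomyosin, at 12.8 and 44.1 CPM. Among spermatogonial markers, of which 1 of 7 was at least 2-fold higher and 3 lower, Uchl1 was at 205 and 40.3 CPM, while Dmrtb1 (31.3 and 309 CPM) and Kit (12.8 and 104 CPM) were lower and Gfra1 and Sall4 had 0 UMIs. Epcam, an epithelial adhesion molecule listed for the rete testis, was at 175 and 30.8 CPM, while Krt7, Krt19 and Cdh16 had 0 UMIs. The part of other cells' RNA in these levels was not tested.

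High shares of such markers lay in few of the chosen cells, but 1 cell alone had no UMI of a Leydig marker and 54 had none of a macrophage marker. A cell was called mixed when the share of its UMIs from a type's markers reached 0.25 times the median of that reference set, which is 1.40% for Leydig, 0.326% for macrophage and 0.295% for spermatocyte markers. Of the 200 cells, 10, 17 and 3 reached these limits, 30 in all, with 5 among ranks 1 to 100 and 25 among ranks 101 to 200. Among the next 200 cells in rank 128 did so, 79 for Leydig, 22 for macrophage and 34 for spermatocyte markers. The median UMI count of the 30 mixed cells was 3766.5, that of the 170 others 3971. Without the 30 cells the median log2 ratio was -1.75 in place of 0.51 for the macrophage list and -4.46 in place of -3.08 for the Leydig list. Lower values follow from how the 30 cells were picked, since they were left out for these same markers and from the chosen side alone.

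**Figure D4:**
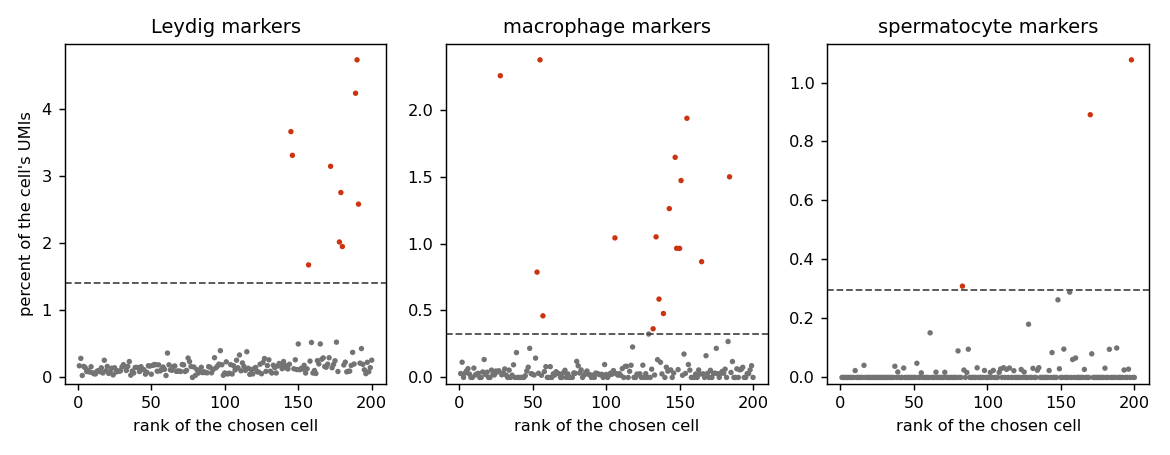
Percent of each chosen cell's UMIs that came from Leydig, macrophage or spermatocyte markers (vertical axes differ) against the rank of the cell by the 6 genes. Dashed lines are 0.25 times the median of the reference set (1.40%, 0.326% and 0.295%); the 10, 17 and 3 cells in red are at or above them, mostly in ranks 101 to 200.

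The chosen cells differed among themselves. For the 1795 genes with at least 100 UMIs in the set, the variance of the counts was divided by the variance that counting at each cell's depth would give, and the median was 1.18, with 165 genes over 2 (127 without the 30 mixed cells). The genes with the highest ratios over all 200 cells included Wfdc17 (58.7), Cd74 (37.3) and Insl3 (23.3), genes of macrophages and Leydig cells, and 79.7% of the Wfdc17 UMIs lay in 10 cells. Without the mixed cells Wfdc17, which is on none of the marker lists, had 1.01. Cd74 had 2.01 and Insl3 1.55, but both are markers by which the mixed cells were picked.

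At an equal relative spread between cells this ratio rises with the UMIs of a gene, so it does not rank genes of different level. In the 170 cells Actb, cytoplasmic actin, had the highest ratio (38.7), and 29.8% of its UMIs came from 10 of them. The 10 cells with the largest share of Actb had a median of 108 Actb UMIs and the other 160 of 11. Clu had 16.9, Defb19 13.0, Wfdc18 9.85, Meig1 9.70 and Ctsl 8.29. Cst9 (9.92) and Cst12 (9.74) are rule genes, whose spread among the chosen cells is shaped by the rule, and nothing is read from theirs. By the share of UMIs in 10 cells other genes lay above Actb. That share tends to rise as the UMIs of a gene fall, so it does not rank genes of different level either. Wfdc17, with 60 UMIs in the 170 cells and a ratio of 1.01, had 31.7% of them in 10 cells. Wfdc18, a whey acidic protein family member, was seen in 17.6% of the cells with 70.9% of its UMIs in 10 of them, and Cck in 17.1% with 65.6%. Of the 10 cells with the largest share of Cck, 1 lay in ranks 1 to 100. The median ratio of all 1795 genes in these cells was 1.17, and Wt1 (154 UMIs) had 0.92, Mro (211 UMIs) 0.83 and Cldn11 (1052 UMIs) 1.77.

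**Figure D5:**
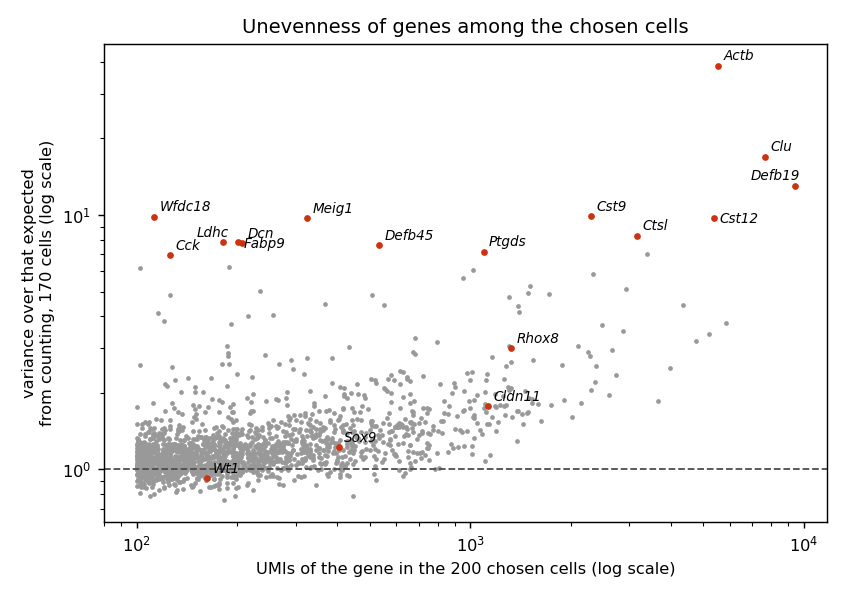
Variance over that expected from counting in the 170 chosen cells below the limits for mixed cells (log scale) against the UMIs of the gene in all 200 chosen cells (log scale), for 1795 genes. Actb (38.7), Clu (16.9) and Defb19 (13.0) lie highest. At an equal relative spread the ratio rises with the UMIs, so genes far apart along the horizontal axis are not ranked by it.

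Levels in ranks 1 to 100 and in ranks 101 to 200 are given side by side as a description. The rule ranked the cells by the 6 genes, so the lower levels of those 6 in the second group are set by it and nothing is read from them: Cst12 was at 8848 and 3455 CPM and Sox9 at 482 and 455 CPM. Genes outside the rule differed from one another. Inha was at 2293 and 692 CPM, Ctsl at 4990 and 2274 CPM and Defb19 at 14654 and 6903 CPM. Clu was at 10792 and 6817 CPM and Wt1 at 227 and 149 CPM, whereas Cldn11 was at 1466 and 1145 CPM, Mro at 266 and 254 CPM and Gata4 at 54.0 and 79.1 CPM. Actb went the other way, at 4707 and 8247 CPM. In ranks 201 to 400 Cldn11 was at 297 CPM and Insl3 at 4451 CPM, against 185 and 1014 CPM of Insl3 in ranks 1 to 100 and 101 to 200.

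The same limit was applied to the other libraries. Of the 8941 A0 and 9682 A10 cells 0 reached the mean of the 200th B0 cell, which allows shares of up to 0.0336% and 0.0310% by a floor of 3 cells (upper ends of the exact intervals 0.0412% and 0.0381%), and of the 3778 BA10 cells 5 did (0.132%, interval 0.0430 to 0.309). The libraries differed in depth, and their shallowest cells had 2985 (B0), 6716 (A10), 7687 (A0) and 9013 UMIs (BA10). Only 2 of the 200 chosen cells held at least 9013 UMIs. Among B0 cells at or above that count the share was 2 of 448 (0.446%, interval 0.0541 to 1.60). The limit was set by the B0 cells themselves and each group is 1 library, so nothing is read from these shares between libraries. With every cell thinned to 2985 UMIs and the limit taken again from the 200th B0 cell, 0 A0, 0 A10 and 3 BA10 cells reached it.

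The 5 BA10 cells were described with the same genes. They held 9342 to 13536 UMIs each and together had 53 UMIs of Cldn11 (962 CPM), 782 of Clu (14195 CPM), 353 of Ctsl (6408 CPM) and 101 of Inha (1833 CPM), next to 1311, 8866, 3674 and 1517 CPM in the chosen B0 cells. Each of the 5 had at least 5 UMIs of Cldn11. Insl3 had 2 UMIs and Cd74 had 0 in the 5 cells together. Sycp3, a spermatocyte marker, had 17 UMIs (309 CPM, against 66.2 CPM in the chosen B0 cells), 11 of them in 1 cell. In that cell spermatocyte markers took 0.366% of the UMIs, above the limit of 0.295% used for mixed cells. With 5 cells of 1 library, no difference from the B0 cells was read from these levels.

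At least 2 of the 6 genes were seen in 20.2% of the A0 cells, 21.8% of A10, 92.6% of those of B0 and 85.0% in BA10, and in 3.49%, 4.33%, 81.5% and 22.2% after thinning to 2985 UMIs. Over whole libraries Cst12 was at 18.3, 25.7, 671 and 93.0 CPM and Sox9 at 0.663, 0.494, 31.2 and 1.66 CPM. A lower share of Sertoli cells among the cells captured, less RNA per cell and the different lower UMI limits of the libraries cannot be told apart in these library-wide values. From SOX9 protein staining of testis samples, the paper reports similar numbers of Sertoli cells in all groups. In its single-cell data it places Leydig and Sertoli cells in a joint cluster, which took most of the B0 cells and a small share of the other libraries. It describes the Sertoli count in that cluster as low in general.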

How the data were processed

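Single-cell RNA of mouse testis was measured in 4 libraries, 1 per group. Reads were counted by the authors with Cell Ranger (2.2.0 in the submitters' processing notes) against mm10, and cells under 200 genes and genes in under 3 cells were removed. The authors deposited natural log values, each being the log of 1 plus a gene's UMIs per 10000 of the cell. UMIs were recovered from them, 100% whole within 0.001. How cells were called is not given consistently in the sources used here. The number of columns of other samples was 0. The pairs of libraries shared 31 to 135 cell barcodes.

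Cells were chosen as stated in the report. The members and the gene lists were chosen with earlier results of these data known. Reference cells needed 3 of a type's markers and were the up to 100 other B0 cells with the highest mean value of them. The Leydig and endothelial sets shared 1 cell and the macrophage and endothelial sets 2. UMIs were summed per set and scaled to 1000000 (CPM). Genes seen in at least 5% of the cells of either set were compared with 1 CPM added, and at least 2-fold was the limit. Named genes were the 20 largest and 10 smallest ratios, rule genes aside, and in each list the 4 largest ratios, the largest difference downward and genes that define it. Some of the other list members named were chosen after their values were seen, as were the 5 late germ cell genes. Fgf2, Trac and Pax8 were not analysed here, and some listed genes that the counts include are not reported here by name. No test was made, each group being 1 library. Doublets were kept: Scrublet (scanpy 1.11.5, expected rate 6%) called 4 of 4659 B0 cells (0.0859%), with 1 of these among the chosen cells, a share too low for the caller to be taken as having worked. Thinning drew UMIs without replacement. The calculation was tested on simulated data. Coordinates are from GENCODE M21 and promoters from RefSeq (GRCm38.p6), matched by symbol for 13 of the 20 highest genes. Python 3.11.15, numpy 2.4.6, scipy 1.17.1, pandas 2.3.3 and matplotlib 3.10.9 were used.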

Additional observations from a re-analysis of the deposited data

Results flagged for a closer look

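The share of cells with at least 2 of the 6 genes differed by 1.61 percentage points (A10 minus A0) and by -7.61 percentage points (BA10 minus B0), which are 9.22 apart. With 1 library each the difference was not tested. The shares depended on depth. Among cells with at least 9013 UMIs they were 20.3% in A0, 24.0% in A10, 99.3% in B0 (448 cells) and 85.0% in BA10, and after thinning every cell to 2985 UMIs they were 3.49%, 4.33%, 81.5% and 22.2%. The pooled level of Cst12 differed by 7.44 CPM (A10 minus A0) and by -578 CPM (BA10 minus B0), which are 586 CPM apart, also not tested. Of the 12 genes measured over whole libraries, Cst12 included, 9 had a higher pooled level in A10 than in A0 and 3 (Sox9, Aard and Cldn11) a lower one, while all 12 were lower in BA10 than in B0. Differences between A0 and A10 ranged from near 0 for Wt1 (0.789 and 0.793 CPM) to that of Cst9 (17.7 and 25.8 CPM).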

How the results depend on the processing

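Alternatives gave 2042 to 3446 genes at least 2-fold higher except for 1688 and 1943 when 10 CPM was added and when every cell was thinned, and 1621 to 2663 lower except for those named below. The choice of at least 3 of the 6 genes left the same 200 cells. Comparisons without the 30 mixed cells and with the spermatocyte reference cells were chosen after seeing the data. Of 390 ratios of the 30 genes named by size under 13 alternatives, 383 stayed at least 2-fold in the same direction, the other 7 being of genes low in the chosen cells and absent or low in the comparison cells. The 30 genes were picked for the most extreme ratios of these same cells, so this count was largely set by the choice. Asking for at least 3 of the 6 genes, or for no limit on the share of cells, left each ratio as it was. No paired analysis was possible because each group was 1 library. Depth limits genes such as Fshr, Amh and Gdnf, and 1 library per group limits every difference.

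With 100 chosen cells the median log2 ratios were 3.29 for hormones and growth factors, 2.87 for carriers and defensins, 0.070 for immediate early genes, -4.44 for Leydig, -0.38 for macrophage, -2.59 for spermatogonia and -3.67 for spermatocyte markers. With 300 they were 3.12 and 2.21 for hormones and for carriers, 2.49 for junctions, and -2.12, 0.58 and -0.45 for Leydig, spermatogonia and spermatocyte markers. Ranking by mean CPM moved Leydig markers to -2.49. Against B0 cells with none of the 6 genes the medians were 2.84 for transcription factors and receptors, 3.01 for junctions, 0.11 for engulfment, -0.018 for immediate early genes, -3.60 for Leydig and -0.99 for spermatocyte markers. Thinning gave 1464 genes at least 2-fold lower and medians of 3.38, 2.195, 2.51 and 0.54 for hormones, carriers, junctions and immediate early genes. With 10 CPM added the medians were 1.45 for transcription factors and receptors, 2.41 for hormones and 2.25 for junctions. With no limit on the share of cells 4073 genes were at least 2-fold lower, and medians were 1.32 for transcription factors and receptors, 2.81 for hormones, 2.18 for carriers and -0.25 for retinoid handling. The higher genes were 41.3% of all calls under that setting, 61.5% against cells with none of the 6 genes, 57.0% after thinning and 57.9% against spermatocyte cells, beside 50.2% in the main comparison. Means over cells gave 2.21 for carriers, 0.57 for immediate early genes and -3.40 for Leydig markers. Without the mixed cells the medians were 2.59 for carriers, -4.46 for Leydig and -1.75 for macrophage markers. Against the spermatocyte reference cells they were 3.07 for transcription factors and receptors, 3.89 for carriers, 3.70 for junctions, 1.79 for lactate supply, 2.79 for engulfment, 1.95 for retinoid handling, 2.55 for cytoskeleton, 3.75 for immediate early genes, 1.83 for Leydig, 3.04 for macrophage and -5.74 for spermatocyte markers. The cause of these changes was not tested.

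The share of cells with the genes was 3.49%, 4.33%, 81.5% and 22.2% (A0, A10, B0, BA10) after thinning, 8.03%, 8.29%, 74.5% and 61.9% for at least 3 of the 6 genes, and 18.2%, 19.7%, 85.6% and 81.8% without Amhr2. Among cells at or above 9013 UMIs it was 24.0% in A10 and 99.3% in B0. The cells at the limit were 2 in B0 above that count, 3 in BA10 after thinning and 2 in BA10 without Amhr2.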

Other observations

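After the 30 mixed cells were left out, 5 genes on no marker list had a high variance over that expected from counting in the remaining 170 cells. They were chosen after their values were seen. Meig1, needed for the sperm tail, Fabp9, a sperm fatty acid binding protein, Ldhc, the lactate dehydrogenase of sperm, Lyar and Asrgl1 had variances of 9.70, 7.82, 7.82, 6.23 and 6.18 times that expected from counting. The same 4 cells were among the 10 highest for at least 3 of these genes. Those cells held 154 of the 304 Meig1 UMIs, 105 of the 184 Fabp9 UMIs, 104 of the 172 Ldhc UMIs, 90 of the 170 Lyar UMIs and 67 of the 97 Asrgl1 UMIs.

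The 4 cells had Sertoli transcripts as well, with Cldn11 at 802 CPM (1449 CPM in the other 166), Aard at 2544 CPM (4988 CPM), Clu at 4646 CPM (9777 CPM) and Sox9 at 111 CPM (516 CPM). Their median UMI count was 8025.5 against 3971, but none lay near that median: they held 3335, 3560, 12491 and 16776 UMIs. The 2 deepest were the only chosen cells with at least 9013 UMIs, and the summed levels of the 4 cells came mostly from these 2. Prm1, a protamine of late spermatids, had 0 UMIs in them and Tnp1, a transition protein, had 1. In the spermatocyte set Meig1 was at 2757 CPM and Ldhc at 1112 CPM. Whether these barcodes held more than 1 cell was not tested.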
